A study of Mus musculus with 36 samples.

Results

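Cytosine methylation in the mouse genome is copied, laid down, oxidized and protected by a small group of proteins, and 10 genes of this group were followed here by symbol through all 6 count tables, among 51413 genes that all 6 tables share. Dnmt1 (the methyltransferase that copies methylation onto the new DNA strand) and Uhrf1 (which brings Dnmt1 to hemimethylated sites) maintain the mark. Dnmt3a and Dnmt3b (the de novo methyltransferases) and Dnmt3l (their cofactor, with no catalytic activity of its own) set new methylation. Tet1, Tet2 and Tet3 oxidize methylated cytosine and so begin its removal, while Dppa3 (also called Stella or PGC7) protects the maternal genome from oxidation in the zygote and Zfp57 (a zinc-finger protein that binds methylated imprinted regions) protects imprints. The mark is erased and rewritten in the germline and again after fertilization, when the oocyte supplies much of the machinery, which makes these genes of interest where a father's diet is followed into the embryo.

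All mice were wild type, C57BL/6 in the labels and C57BL/6N in the study's methods. Males 6 weeks old were fed a high-fat diet (HFD, 60% of calories from fat) or a low-fat diet (LFD, 10%) for 2 weeks. Round spermatids (the haploid cells before sperm elongation) and cauda spermatozoa purified by swim-up were taken from them at 8 weeks, and morulae came from in vitro fertilization of oocytes from unexposed females with sperm of such males, collected after 72 h of culture. Liver, epididymal white adipose tissue (eWAT) and gastrocnemius muscle came from chow-fed male offspring of HFD-fed fathers that were later found glucose tolerant (HFDt) or intolerant (HFDi). Spermatozoa and morulae had 3 HFD and 3 LFD libraries each. The 24 columns of the other tables could not be tied to a diet or phenotype by name, so each of those tables was treated as 1 group of 6 libraries. In 3 of 6 morula samples the free-text description named the other diet than the title and the treatment field, which were followed here. Libraries are numbered within a group by increasing total count, a number that carries no other meaning. Nothing in the labels says which libraries share an animal, so the spread between libraries may in part be technical.

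Total counts ran from 20138842 to 31056066 in round spermatids and from 11471251 to 12153141 in morulae. Spermatozoa were shallower, at 2560219 to 4062321, and the offspring tissues reached 369772 at the low end, in gastrocnemius. Levels are given as counts per 1000000 of the library total (CPM) unless another scale is named. Genes of the mitochondrial genome took 84.3%, 79.0% and 78.1% of counts in the HFD sperm libraries but 43.5%, 63.4% and 64.7% in the LFD ones, against 22.8% to 26.9% in morulae. Markers of spermatids and sperm summed to 7159 to 9319 CPM in round spermatids, and those of spermatogonia and spermatocytes to 168 to 227 CPM there. All 6 morula markers were present in each morula library, at 1302 to 1454 CPM in sum, and muscle, adipose and liver markers led in their own tissues. Markers of the epididymal epithelium were found in sperm, at 2049, 1629 and 2879 CPM with HFD and 24985, 3013 and 8523 CPM with LFD, and their part in any sperm result below was not tested.

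On GRCm38 the maintenance genes lie on different chromosomes, Dnmt1 at chr9:20907209-20959888 (minus strand) and Uhrf1 at chr17:56303321-56323486 (plus). The de novo genes lie at chr12:3806007-3914443 (Dnmt3a), chr2:153649450-153687730 (Dnmt3b) and chr10:78041947-78063622 (Dnmt3l), all on the plus strand. Tet1 (chr10:62804570-62908996), Tet2 (chr3:133463679-133545139) and Tet3 (chr6:83362373-83459084) lie on the minus strand, and Dppa3 (chr6:122626410-122630272) and Zfp57 (chr17:37001163-37010635) on the plus strand. Counts were taken over all exons of each gene.

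RefSeq gave start-site windows of 300 bases, 250 upstream and 50 downstream, for 9 of the 10 genes on GRCm38.p6 (18 windows in all). Dppa3 had none in the table. The genes differed widely in the CG dinucleotides, the substrate of these enzymes, around their own starts. Tet2 held 57 in its window, more than 99.8% of 32851 windows genome-wide, and Dnmt3a held up to 47, more than 98.6%, where the median window held 7. Dnmt1 and Uhrf1 each held up to 33, Dnmt3b 30, Tet3 22 and Tet1 17. At the other end Zfp57 held at most 9 and Dnmt3l at most 6, close to the median window. Shown are the windows richest in CG of 5 genes, taken from the pairs whose levels moved most closely together over the libraries. Uhrf1, Zfp57 and Dnmt3l moved together (Pearson's r 0.942 to 0.964), and so did Dnmt3a and Tet2 (0.909). The 5 genes did not move as 1 group, since r between these sets ran from −0.295 (Uhrf1 and Tet2) to 0.116 (Dnmt3a and Dnmt3l). Uhrf1 and Zfp57 were highest in round spermatids, and Dnmt3l overlapped there with morulae. Dnmt3a and Tet2 follow, both highest in morulae. Each is written 5′ to 3′ on the gene's own strand with every CG in capitals.
Uhrf1, chr17:56304063-56304362, plus strand: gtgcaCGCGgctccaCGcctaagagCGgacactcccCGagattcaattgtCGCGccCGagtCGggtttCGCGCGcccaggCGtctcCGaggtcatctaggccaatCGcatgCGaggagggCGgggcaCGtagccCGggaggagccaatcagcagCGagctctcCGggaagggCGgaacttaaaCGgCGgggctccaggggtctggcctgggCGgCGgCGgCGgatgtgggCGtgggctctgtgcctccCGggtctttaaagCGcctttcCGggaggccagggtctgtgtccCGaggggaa
Zfp57, chr17:37002275-37002574, plus strand: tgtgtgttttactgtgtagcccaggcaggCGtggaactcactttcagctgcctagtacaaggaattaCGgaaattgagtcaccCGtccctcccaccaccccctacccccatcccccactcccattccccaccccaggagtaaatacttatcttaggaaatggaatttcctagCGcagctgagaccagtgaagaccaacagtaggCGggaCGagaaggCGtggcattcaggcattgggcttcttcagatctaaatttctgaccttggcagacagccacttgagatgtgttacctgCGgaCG
Dnmt3l, chr10:78042037-78042336, plus strand: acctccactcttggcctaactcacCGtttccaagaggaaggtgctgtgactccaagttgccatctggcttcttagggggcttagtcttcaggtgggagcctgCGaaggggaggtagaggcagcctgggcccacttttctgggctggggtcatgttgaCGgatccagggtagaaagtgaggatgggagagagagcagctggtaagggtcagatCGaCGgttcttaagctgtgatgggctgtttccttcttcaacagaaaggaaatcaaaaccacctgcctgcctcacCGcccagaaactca
Dnmt3a, chr12:3806910-3807209, plus strand: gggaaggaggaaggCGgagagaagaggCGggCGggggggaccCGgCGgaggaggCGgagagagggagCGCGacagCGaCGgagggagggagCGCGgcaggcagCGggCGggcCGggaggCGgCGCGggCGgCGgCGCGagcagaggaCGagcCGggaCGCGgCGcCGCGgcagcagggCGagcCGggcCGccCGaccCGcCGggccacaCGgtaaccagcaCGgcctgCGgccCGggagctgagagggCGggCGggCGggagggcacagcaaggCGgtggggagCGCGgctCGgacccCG
Tet2, chr3:133544341-133544640, minus strand: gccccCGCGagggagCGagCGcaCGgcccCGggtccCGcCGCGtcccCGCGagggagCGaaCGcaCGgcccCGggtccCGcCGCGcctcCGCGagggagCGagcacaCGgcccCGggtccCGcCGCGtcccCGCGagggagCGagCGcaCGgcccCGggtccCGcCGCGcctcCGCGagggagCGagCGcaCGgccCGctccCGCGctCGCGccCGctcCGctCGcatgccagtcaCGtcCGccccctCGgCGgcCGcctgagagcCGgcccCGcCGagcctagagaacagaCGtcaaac
The letters CCAAT, searched on both strands, occurred in these windows of Uhrf1 and Zfp57, and in 37.4% of all windows. GGGCGG, searched on both strands, occurred in those of Uhrf1, Dnmt3l, Dnmt3a and Tet2, and in 35.7% of all windows. TGACGTCA occurred in 0 of the 18 member windows and in 1.8% of all windows.

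Of all counts assigned to the 10 genes, maintenance took 69.1% on average in round spermatids (66.3% to 71.7%), oxidation took 65.3% in spermatozoa (44.1% to 73.4%), and protection took 64.8% in morulae (61.7% to 68.7%), nearly all of it Dppa3. Oxidation was also the largest share in the offspring tissues, at 53.7% in eWAT. In liver, oxidation (48.4%) and de novo methylation (46.4%) were close, as they were in gastrocnemius (52.3% and 43.2%), while eWAT also gave 11.6% to maintenance. These shares compare genes of unequal length, and the offspring tissues were read from transcript 3′ ends only, so shares are set side by side across libraries and not across genes. In RNA pooled from many cells, fewer cells of a type and less RNA per cell cannot be told apart.

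**Figure D1:**
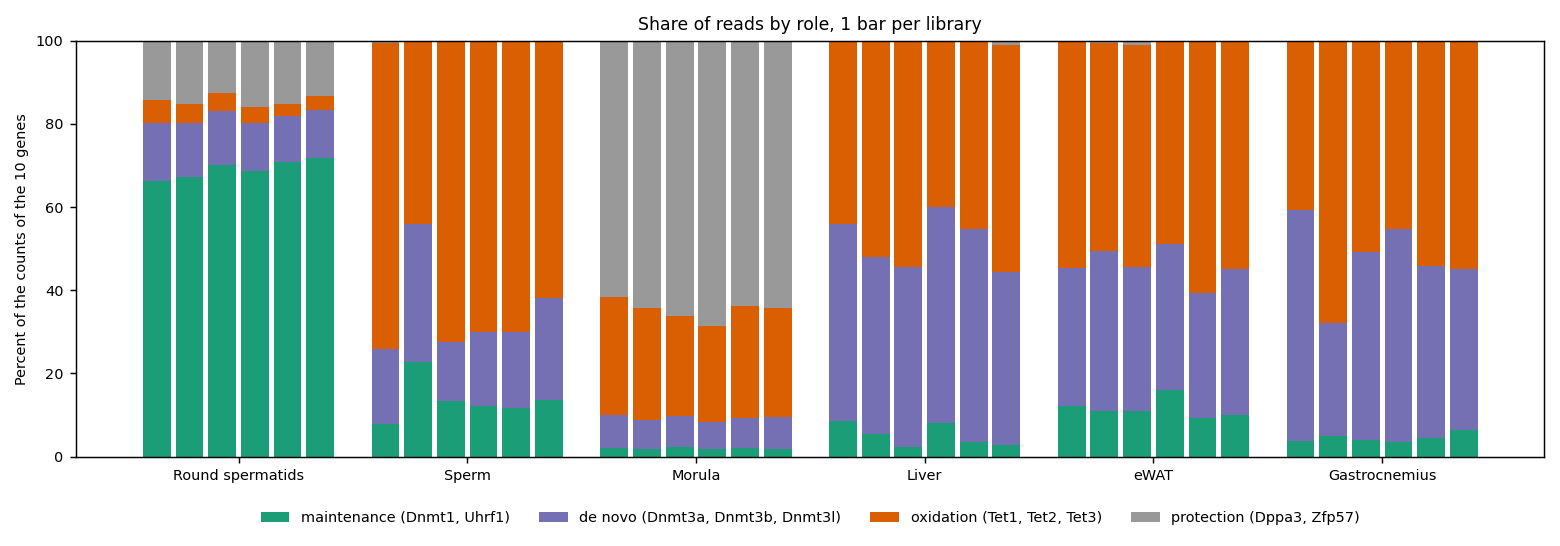
Share of the counts of the 10 genes (percent, y axis) that fell on maintenance, de novo, oxidation and protection genes in each of the 36 libraries (1 stacked bar each). Maintenance made up 66.3% to 71.7% in round spermatids and protection 61.7% to 68.7% in morulae, while oxidation led in spermatozoa.

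Among the maintenance genes, Dnmt1 stood at a median of 51.2 CPM in round spermatids (42.8 to 56.0) and at 52.9 to 74.3 CPM in morulae, and these ranges overlapped. It was lower in eWAT (15.5, median 18.9, 35.9), in gastrocnemius (2.70, 3.55, 5.82) and in liver (1.80, 2.99, 7.02 CPM). Uhrf1 had a sharper pattern: a median of 132 CPM in round spermatids (123 to 146), 11.7 to 23.3 CPM in morulae and at most 1.72 CPM in eWAT. Round spermatids, morulae and the rest did not overlap for Uhrf1. It had 0 counts in all 6 liver and all 6 gastrocnemius libraries. That allows up to 0.223 and 0.305 CPM (3 counts over the group, counting error only). In CPM of the library total, round spermatids were then at least 604-fold and at least 442-fold higher. The offspring tissues were read from transcript 3′ ends only. Tissue and library kit therefore cannot be told apart in these folds or in the orders of tissues below. Per kilobase of exon, the Uhrf1 level was 4.67 times that of Dnmt1 in round spermatids (median, 4.204 to 4.96) and 0.492 times in morulae (0.310 to 0.551), so the order of these partner genes was opposite in the 2 cell types.

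The de novo enzymes were most abundant in morulae. Dnmt3a stood at 157.9 to 221.8 CPM there, above eWAT (50.8, median 56.2, 76.6), gastrocnemius (23.5, 36.2, 43.9), liver (26.5, 31.3, 43.4) and round spermatids (8.06, 10.1, 13.3 CPM). Morulae and eWAT stood apart from their neighbours in that order, while gastrocnemius, liver, spermatozoa and round spermatids overlapped each with the next. Dnmt3b stood at 97.7 to 118.4 CPM in morulae and 3.54 to 5.56 CPM in round spermatids, and did not pass 3.41 CPM in any library of the offspring tissues. The cofactor Dnmt3l differed from both enzymes: it had 15.7 to 19.9 CPM in round spermatids and 10.9 to 17.1 CPM in morulae, which overlapped, and only 3 counts over all eWAT libraries, 1 over gastrocnemius and 0 over liver. In CPM of the library total, round spermatids were at least 81.6-fold above liver for Dnmt3l, again across library kits.

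Of the oxidation genes, Tet1 and Tet2 were highest in morulae by far and Tet3 was not. Tet2 had 625.7 to 753.9 CPM in morulae, 57.5 to 93.4 CPM in eWAT, 27.2 to 51.3 CPM in gastrocnemius, 17.2 to 33.3 CPM in liver and 0.4995 to 1.39 CPM in round spermatids. Morulae lay above every other library, and round spermatids lay below every other library. Tet1 had 306.5 to 401.6 CPM in morulae and no more than 4.27 CPM in any library of round spermatids or offspring tissues. Tet3, by contrast, overlapped between every pair of neighbours in its order of means, which ran from 23.1 CPM in eWAT through 21.9 in morulae, 20.7 in spermatozoa, 12.6 in liver and 9.05 in round spermatids to 8.08 CPM in gastrocnemius. The sperm mean pools diets that lay apart on this scale, 7.63 CPM with HFD and 33.7 with LFD, which alone would stand last and first. Per kilobase of exon, the Tet2 level was 33.7 times that of Tet3 in morulae (median, 21.1 to 46.8), 2.30 times in spermatozoa (1.17 to 3.33) and 0.0995 times in round spermatids (0.0753 to 0.144), and these 3 ranges did not overlap.

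The protection genes differed in the cell type where they were highest. Dppa3 reached 2379 to 3066 CPM in morulae and, outside them, only 5 counts in 1 eWAT library. With 0 counts in all round spermatid libraries, which allows 0.0200 CPM, morulae were at least 136690-fold higher than round spermatids for Dppa3. Against spermatozoa, where Dppa3 also had 0 counts, morulae were at least 17521-fold higher in CPM of the library total. Mitochondrial genes took 43.5% to 84.3% of that total in spermatozoa, so the bound would be lower on nuclear totals. Zfp57 was instead highest in round spermatids (35.9, median 38.8, 39.7 CPM), lower in morulae (4.33 to 16.5 CPM), and had 6 counts over eWAT, 2 over liver, 2 over spermatozoa and 0 over gastrocnemius. Round spermatids and morulae did not overlap for Zfp57.

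**Figure D2:**
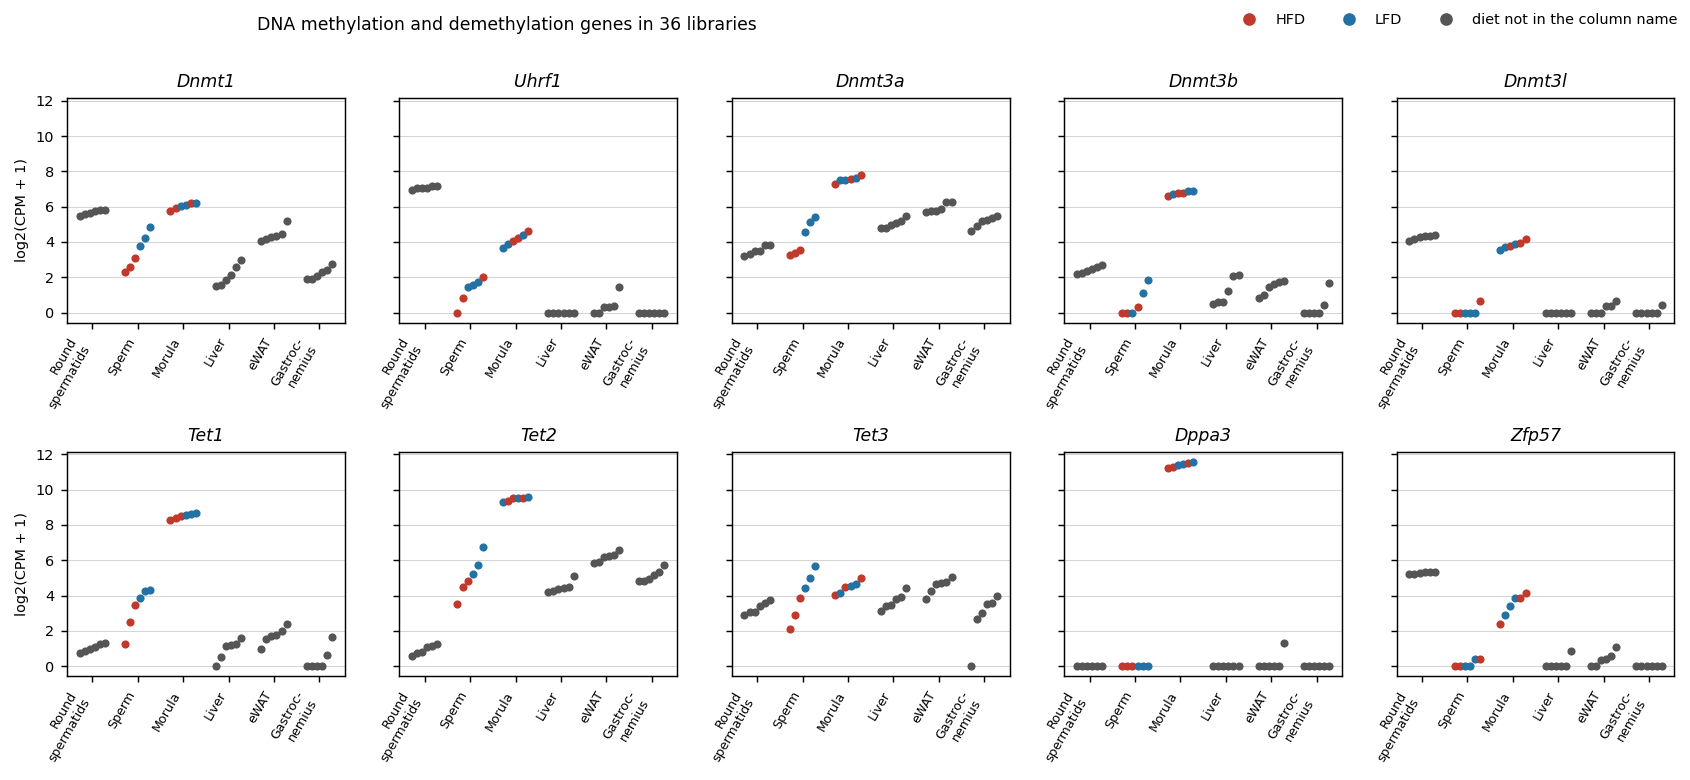
Level of each of the 10 genes in each of the 36 libraries, as log2(CPM + 1) on the y axis, with 1 panel per gene and 1 point per library grouped by cell type or tissue (red HFD, blue LFD, gray no diet in the column name). Uhrf1 and Zfp57 were highest in round spermatids, Dnmt3a, Dnmt3b, Tet1, Tet2 and Dppa3 in morulae, and Tet3 overlapped between all neighbours in its order.

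Per kilobase of exon, the order of the genes themselves also changed between the cell types. In round spermatids Uhrf1 led at 31.6 CPM per kilobase, before Zfp57 (10.1), Dnmt1 (6.83) and Dnmt3l (6.08), while Tet1 and Tet2 were lowest among the detected genes at 0.0707 and 0.0552 CPM per kilobase. In morulae Dppa3 stood at 3060 CPM per kilobase, followed by Tet2 (41.9), Tet1 (23.3), Dnmt3b (21.2), Dnmt3a (11.3) and Dnmt1 (8.90). In spermatozoa Tet2 led at 2.52 CPM per kilobase, followed by Dnmt1 (1.69), Dnmt3a (1.27) and Tet3 (1.24). These sperm means pool both diets, and the last pair changed order between them, at 0.578 and 0.457 CPM per kilobase with HFD and 1.96 and 2.02 with LFD. The per-kilobase ratio of Dnmt1 to Tet2 was 128 in round spermatids (median, 88.2 to 224), 0.710 in spermatozoa (0.429 to 1.06) and 0.219 in morulae (0.182 to 0.239).

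Spermatozoa were compared with round spermatids to see how the transcripts of mature sperm relate to those of their precursors. In edgeR's quasi-likelihood test over 22658 genes, 9 of the 10 genes passed a Benjamini-Hochberg adjusted p of 0.05, 4 higher and 5 lower in spermatozoa. Of the 5 lower, Dnmt3b, Dnmt3l and Zfp57 passed the filter on low counts only through the other cell types. Being lower was then largely fixed in advance for them, so these 3 calls are no support. Over all genes, 23.3% were higher and 49.9% lower, and the median log2 difference was −1.43. All 3 oxidation genes were higher: Tet2 by 6.70 ± 0.25 (log2 ± SE), Tet1 by 4.68 ± 0.34 and Tet3 by 2.29 ± 0.25, and so was Dnmt3a, by 2.28 ± 0.18. These values are relative to composition-scaled totals (TMM scaling); in plain CPM, Tet1, Tet3 and Dnmt3a overlapped between the cell types, and Tet2 alone of these 4 did not. Both maintenance genes were lower, Dnmt1 at −0.80 ± 0.16 (edgeR adjusted p = 1.66e-04) and Uhrf1 at −4.85 ± 0.35.

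All that were lower in sperm, except Dnmt1, rested on few sperm counts. Uhrf1 had 31 counts over the 6 sperm libraries. Its ratio of round spermatid to sperm CPM was 83.9 (exact 95% interval 59.1 to 124), against 28.9 in the TMM-scaled fit. Dnmt3l and Zfp57 had 2 counts each over the 6 sperm libraries, against 2711 and 5731 in round spermatids, and the ratio of round spermatid to sperm CPM was 174 (exact 95% interval 48.1 to 1435) for Dnmt3l and 367 (102 to 3034) for Zfp57. Dnmt3b had 12 sperm counts and a ratio of 6.996 (3.98 to 13.6). Its log2 difference was −2.15 ± 0.56 (edgeR adjusted p = 0.00216) and missed the threshold with the LFD sperm libraries alone, at −1.07, where 8 of the 10 genes passed. Dppa3 had 0 counts in both and entered the fit only through morulae. The sperm and round spermatid libraries were made as single-end and paired-end libraries and stand in separate tables, so cell type and library run cannot be told apart here.

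Morulae were compared with round spermatids in the same fit, where 32.9% of all genes were higher and 54% lower in morulae and the median of all genes was −1.25. Of the 10 genes, 7 were higher and 2 lower in morulae. One of the higher, Dppa3, had 0 counts in round spermatids and passed the filter only through morulae. Its call was therefore fixed in advance and is no support. Beside Dppa3, the higher ones were Tet2 (9.99 ± 0.28, log2 ± SE), Tet1 (8.82 ± 0.36), Dnmt3b (5.04 ± 0.25), Dnmt3a (4.58 ± 0.19), Tet3 (1.71 ± 0.23) and Dnmt1 (0.80 ± 0.14). Dnmt1 missed the threshold when library totals were used for scaling (0.36), and its CPM ranges overlapped. Uhrf1 (−2.57 ± 0.26) and Zfp57 (−1.44 ± 0.27) were lower in morulae. Dnmt3l did not differ past the threshold (−0.01 ± 0.20), although DESeq2 gave −0.32 and called it. The comparisons of spermatozoa and of morulae share the round spermatid libraries, so the 2 sets of differences are not independent. Morulae and round spermatids also stand in separate tables, so cell type and library run cannot be told apart here either.

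The diet comparison in spermatozoa asked whether 2 weeks of HFD changed these transcripts in mature sperm. Of the 10 genes, 5 passed the filter on low counts, and 0 of these 5 passed the test, where 0% of 8643 genes did. The smallest edgeR adjusted p of any gene was 0.231, with 1124 genes at an unadjusted p under 0.05, while DESeq2 called 295 genes, and limma-voom called 0. The outcome turned on the scaling, and the share of mitochondrial counts was higher in every HFD library than in any LFD library.

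In CPM of the library totals, Tet2 stood at 21.4, 10.6 and 27.6 in the 3 HFD libraries and at 107.8, 36.04 and 51.5 in the 3 LFD libraries. Every HFD library was lower than every LFD library, with LFD 1 far above the rest. Dnmt1 had 4.01, 4.89 and 7.63 CPM with HFD and 27.7, 12.7 and 17.7 with LFD, and Dnmt3a had 9.35, 10.9 and 8.62 against 42.2, 22.3 and 33.4. For both, the HFD libraries lay below the LFD ones without overlap. Tet3 had 6.35, 3.26 and 13.3 CPM with HFD and 49.996, 30.6 and 20.7 with LFD, and Tet1 had 10.02, 1.36 and 4.68 against 13.3, 18.9 and 18.4. Thus 5 of the 5 genes were lower in HFD without overlap, and so were 57.2% of all genes tested, so this count is not particular to the group.

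In CPM of the nuclear gene totals, the separation narrowed. Dnmt3a had 59.4, 51.8 and 39.3 with HFD and 74.6, 60.9 and 94.6 with LFD, and was the 1 gene of 5 without overlap, as were 26.2% of all genes. Tet2 had 135.8, 50.5 and 125.9 against 190.7, 98.4 and 145.6, and its groups overlapped. Dnmt1 (23.3 to 34.8 against 34.7 to 50.1), Tet1 (6.48 to 63.7 against 23.5 to 51.9) and Tet3 (15.6 to 60.7 against 58.4 to 88.4) overlapped as well. The HFD 1 library held the highest Tet1 value on this scale and HFD 2 the lowest.

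With TMM-scaled totals, the log2 differences, HFD over LFD, were small against their errors: Dnmt1 −0.04 ± 0.64, Dnmt3a 0.05 ± 0.55, Tet1 −0.03 ± 0.78, Tet2 0.08 ± 0.48 and Tet3 −0.45 ± 0.59 (log2 ± SE). The edgeR adjusted p ran from 0.801 for Tet3 to 0.992 for Tet1. The errors were wide, and within 2 SE the fold could be 0.325 to 1.65 for Tet3, 0.540 to 2.06 for Tet2, 0.484 to 2.22 for Dnmt3a, 0.401 to 2.35 for Dnmt1 and 0.334 to 2.88 for Tet1. Differences of that size were not detectable at this depth and spread. Scaled by library totals instead, 3 of the 5 passed the test as lower with HFD, where 37.8% of all genes did: Tet3 at −2.13 (edgeR adjusted p = 0.0333), Tet2 at −1.71 (0.0463) and Dnmt3a at −1.76 (0.0476). The median of all genes was then −1.82, against −0.07 with TMM, and these values lay close to that median. TMM factors were 0.514, 0.440 and 0.710 in the HFD libraries and 2.62, 1.52 and 1.56 in the LFD libraries.

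**Figure D3:**
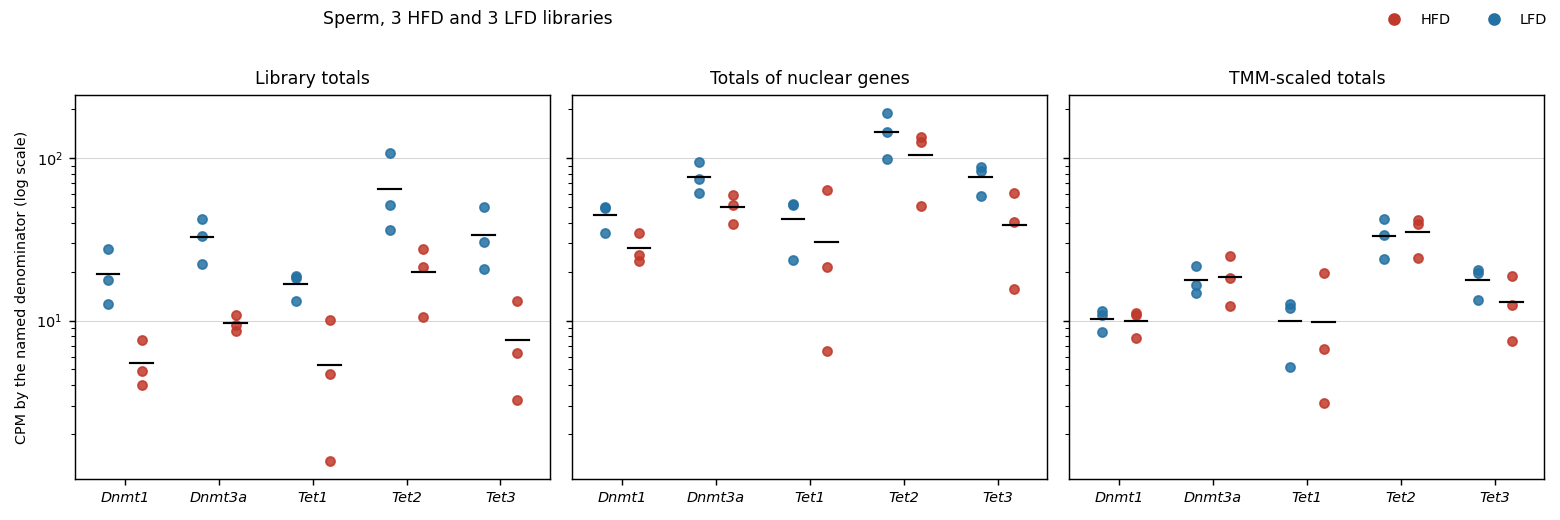
Levels of Dnmt1, Dnmt3a, Tet1, Tet2 and Tet3 in the 3 HFD (red) and 3 LFD (blue) sperm libraries on a log axis, in CPM of the library total, of the nuclear total and of the TMM-scaled total (3 panels; points are libraries, lines the means of 3). All 5 genes separated by diet in the first panel, Dnmt3a alone in the second, and 0 of 5 in the third.

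The 5 sperm genes under the filter were sparse. Uhrf1 had 0, 2.99 and 0.738 CPM of the library total with HFD and 1.95, 1.72 and 2.29 with LFD, and the groups overlapped. For Dnmt3b the HFD libraries held 1 count in sum and those of LFD 11, with 0 in 2 of 3 HFD libraries and in 1 of 3 LFD libraries. Dnmt3l had 2 counts, both in 1 HFD library, Zfp57 had 1 count in each diet, and Dppa3 had 0 in both. Within the sperm libraries, oxidation genes took 73.4%, 44.1% and 72.5% of the counts of the group with HFD and 70.1%, 69.9% and 61.6% with LFD, and these shares, which do not depend on the scaling, overlapped. They rested on 127 to 255 counts per HFD library and at least 356 per LFD library.

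In morulae the question was whether the father's diet showed in the embryo before implantation. All 10 genes passed the filter and 0 of 10 passed the test, where 0% of 13447 genes did (smallest edgeR adjusted p 0.456). At an unadjusted p under 0.05 there were 858 genes, DESeq2 called 18 genes and limma-voom called 0. Most errors were smaller than those in spermatozoa.

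Tet1 had the smallest p among the 10 genes in morulae. It stood at 336.7, 356.5 and 306.5 CPM with HFD and 376.2, 401.6 and 387.1 CPM with LFD. Every HFD library was lower than every LFD library, which held for 1 of the 10 genes and for 5.29% of all genes. The log2 difference was −0.24 ± 0.09 (unadjusted p = 0.0216, edgeR adjusted p = 0.717), a fold within 2 SE of 0.746 to 0.964, and it failed the correction over all genes. Leaving out each library in turn kept it between −0.33 and −0.16. Dppa3 followed, at 2379, 2523 and 2885 CPM with HFD and 3066, 2770 and 2751 with LFD, where HFD 3 overlapped the LFD libraries. Its log2 difference was −0.16 ± 0.08 (edgeR adjusted p = 0.771), with a fold within 2 SE of 0.799 to 0.998. A range of 2 SE is a measure of error and not a test.

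Tet2, Dnmt3a and Dnmt3b had the smaller errors among the remaining genes. Tet2 had 742.1, 664.8 and 727.0 CPM with HFD and 625.7, 753.9 and 729.2 with LFD, and the groups overlapped over most of their range. Its log2 difference was −0.00 ± 0.08, which limits the fold to 0.888 to 1.12 within 2 SE. Dnmt3a had 189.5, 157.9 and 221.8 CPM with HFD and 183.4, 183.3 and 195.6 with LFD (log2 difference −0.01 ± 0.10, fold 0.863 to 1.15). The LFD libraries lay inside the range of the HFD ones. Dnmt3b had 106.8, 107.0 and 97.7 CPM against 103.8, 117.2 and 118.4 (−0.14 ± 0.10, fold 0.784 to 1.05), with overlap.

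The maintenance genes and the low genes had wider errors in morulae. Dnmt1 had 60.8, 52.9 and 73.2 CPM with HFD and 65.3, 74.3 and 67.5 with LFD (log2 −0.17 ± 0.13, fold within 2 SE 0.746 to 1.06). Uhrf1 had 18.01, 15.5 and 23.3 CPM against 11.7, 20.4 and 13.6 (0.29 ± 0.23, fold 0.887 to 1.68). HFD and LFD overlapped for both. Dnmt3l had 12.5, 14.1 and 17.1 CPM with HFD and 12.4, 13.99 and 10.9 with LFD (0.21 ± 0.21, fold 0.860 to 1.55). Tet3 had 21.7, 31.2 and 15.4 CPM with HFD and 24.1, 22.3 and 16.9 with LFD, with the LFD libraries inside the HFD range (fold 0.760 to 1.51). Zfp57 had 13.5, 4.33 and 16.5 CPM against 6.36, 13.5 and 9.56 (fold 0.666 to 1.93), and again the HFD libraries held both the lowest and the highest value. Leaving out 1 library turned the sign for Tet3 and Zfp57, whose log2 differences were 0.10 ± 0.25 and 0.18 ± 0.38.

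**Figure D4:**
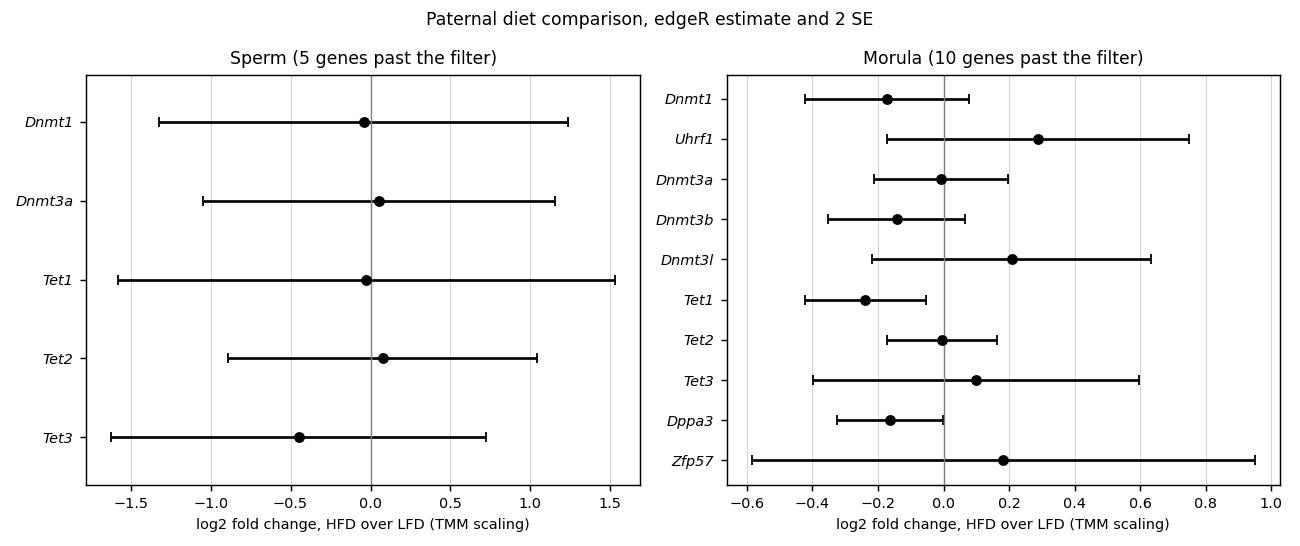
edgeR log2 difference, HFD over LFD, with bars of 2 SE, for the 5 genes tested in spermatozoa and the 10 tested in morulae (3 libraries per diet). The bars crossed 0 for all genes but Tet1 (−0.24 ± 0.09) and Dppa3 (−0.16 ± 0.08) in morulae, and neither passed the adjusted test. Bars of 2 SE are a measure of error and not a test.

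Whether the diet difference itself differed between spermatozoa and morulae was tested as an interaction over 15416 genes. Of these, 0.00649% passed, which was 1 gene (Gm10925), and 0 of the 10 genes did. For the 5 genes past the sperm filter the interaction ran from −0.56 ± 0.59 for Tet3 to 0.16 ± 0.65 for Tet1 (log2 ± SE), with edgeR adjusted p of 0.772 for Tet3 and above it for the others. The remaining 5 had 0 to 31 counts over all sperm libraries, too few to give a sperm diet difference for comparison. The result therefore covers only the 5 genes past the sperm filter.

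In the offspring tissues 4 of the 10 genes passed the filter: Dnmt1, Dnmt3a, Tet2 and Tet3. Against eWAT, liver was lower for 2 of 4, Dnmt1 (−1.60 ± 0.31, log2 ± SE, edgeR adjusted p = 8.21e-05) and Tet2 (−0.82 ± 0.18, adjusted p = 4.49e-04), where 61.6% of 10851 genes passed in either direction. Against gastrocnemius, liver was lower for 1 of 4, Tet2 (−0.74 ± 0.19, edgeR adjusted p = 0.00163), where 66.4% passed. Between eWAT and gastrocnemius 1 of 4 differed, Dnmt1, higher in eWAT by 1.41 ± 0.32 (edgeR adjusted p = 5.64e-04), where 67.4% passed. The 3 contrasts share their libraries. Dnmt1 had 4 to 16 counts per library in liver and 1 to 16 in gastrocnemius, against 25 to 126 in eWAT. It passed the filter only through eWAT, so its 2 calls follow from that level and are no added support.

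Dnmt3a and Tet3 gave no call between offspring tissues with TMM scaling, with log2 differences of 0.01 ± 0.17 and 0.05 ± 0.30 between liver and eWAT, and −0.16 ± 0.17 and 0.34 ± 0.33 between eWAT and gastrocnemius. With library totals, all 4 genes were called lower in liver than eWAT, and all 4 higher in eWAT than gastrocnemius, while the median of all genes moved to −0.996 and 1.32 from −0.07 and 0.35. eWAT also held markers of leukocytes at 701 to 1316 CPM in sum and of cycling cells at 23.3 to 41.0 CPM, against 33.8 to 110 and 1.70 to 7.85 CPM in liver and 40.0 to 63.1 and 2.14 to 10.8 CPM in gastrocnemius. Both sums, like Dnmt1, were highest in eWAT among these tissues, and their part in the Dnmt1 level was not tested.

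A list of 54 other genes of the pathway gave the setting: readers of methylation, base excision repair, partners in imprinting and recruitment, the methyl donor cycle, and regulators of TET activity. In the sperm diet test 0 of 37 passed, with a median log2 difference of −0.23 against −0.07 for all genes. The smallest unadjusted p among higher genes belonged to Ehmt2, a histone methyltransferase (0.89 ± 0.62, edgeR adjusted p = 0.590), and Mbd3 (0.78 ± 0.68, 0.680). Among lower ones it belonged to Uhrf2, a relative of Uhrf1 (−1.15 ± 0.49, edgeR adjusted p = 0.339).

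In the morula diet test 0 of 48 listed genes passed. The smallest p among those with higher values belonged to Ogt, a glycosyltransferase that binds TET proteins (0.43 ± 0.17, edgeR adjusted p = 0.718), and Mbd4, a thymine glycosylase (0.44 ± 0.19, 0.736). Mbd3 (−0.37 ± 0.18, edgeR adjusted p = 0.771) and Mbd2 (−0.75 ± 0.39, 0.792) had the smallest among those with lower values. Of 9 base excision genes tested, 8 had a positive value in morulae, with a median of 0.44 against 0.01 over all genes, and 0 of 9 passed. Positive values were found for 24 of all 48, including 4 of 13 imprint and recruitment partners, 6 of 12 methyl donor genes, 3 of 7 readers and 3 of 7 TET regulators. In spermatozoa 3 of 6 base excision genes were positive, with a median of 0.018.

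Between cell types many more of the list passed. In spermatozoa against round spermatids 23 of 52 were higher and 17 lower (median log2 0.40 against −1.43 for all genes). Of the 8 readers, 7 were higher and 1 lower, with a median of 2.47, against 23.3% higher and 49.9% lower over all genes. Of the 13 imprint and recruitment partners 3 were higher and 7 lower, close to those shares. In morulae against round spermatids 30 of 52 were higher and 9 lower (median 1.30 against −1.25), among them 9 higher and 2 lower of 14 methyl donor genes and 9 higher and 1 lower of 13 imprint partners. Over all genes 32.9% were higher and 54% lower there. Of the 8 readers 2 were higher and 4 lower, close to those shares, with a median of −0.93.

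The listed genes with the most CPM also changed with the cell type. CPM is not scaled by length and QuantSeq reads transcript ends, so the genes were picked by CPM and no order between them is read. Round spermatids had high counts of Usp7, a deubiquitinase that binds Uhrf1 and Dnmt1 (508.6 ± 16.6 CPM, SD, n = 6), Ehmt2 (415.5 ± 12.3) and Trim28 (397.5 ± 17.3), the corepressor that Zfp57 recruits. Spermatozoa had high counts of Nsd1 (127.2 ± 113 CPM, n = 6) and Cbs (108.6 ± 96.3), both with an SD close to the mean. Morulae had high counts of Bhmt, which remethylates homocysteine (969.5 ± 77.0 CPM, n = 6) and Setd2 (890.4 ± 44.5).

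In the offspring tissues liver had high counts of Mat1a, which makes the methyl donor S-adenosylmethionine (7326 ± 641 CPM, SD, n = 6), Gnmt (1458 ± 193.5) and Bhmt (424.9 ± 259). Of 12 methyl donor genes tested, 9 were higher and 1 lower in liver than eWAT, and 10 higher and 2 lower than in gastrocnemius. Over all 46 listed genes tested, liver had 19 higher and 10 lower against eWAT and 19 higher and 11 lower against gastrocnemius, where 61.6% and 66.4% of all genes passed, so these totals are near the background. eWAT had high counts of Idh2 (260.8 ± 85.2 CPM), Zbtb38 (145.4 ± 23.03) and Zbtb4 (138.8 ± 20.8), and gastrocnemius of Idh2 (469.9 ± 463), Zbtb38 (114.5 ± 15.7) and Gadd45g (92.6 ± 29.6). Between eWAT and gastrocnemius 13 of 46 were higher in eWAT and 15 lower, where 67.4% of all genes passed.

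Over the 36 libraries, some of the 10 genes followed each other closely in log2(CPM + 0.5). Pearson's r was 0.964 for Dnmt3l and Zfp57, 0.957 for Uhrf1 and Zfp57, 0.942 for Uhrf1 and Dnmt3l, 0.909 for Dnmt3a and Tet2, and 0.902 for Tet1 and Dppa3. These describe 6 tables whose libraries share cell type, chemistry and depth, and they follow mostly the cell types. Among 24806 genes, those most like Uhrf1 were Atxn2l (r = 0.981), Tcam1 (0.980) and Mcrs1 (0.978), and those most like Zfp57 were Adgrf3 (0.989), Nek2 (0.983) and AA467197 (0.981). Dnmt3l was most like Gm10123 (0.991), Tex19.2 (0.990) and Dynlt1c (0.990).

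Among the genes highest in morulae, Dppa3 was most like Pramel5 (r = 0.999), Gm15459 and Pramel4, and Dnmt3b like Set (0.958), Ccdc92b (0.947) and Rpl5 (0.947). Tet1 was most like 3 ribosomal protein pseudogenes, Rpl10a-ps1, Rpl22-ps1 and Rpl10-ps3, which share sequence with their parent genes. Tet2 was most like Ddx3x (0.968), Anp32e (0.957) and Tnks2 (0.956), and Dnmt3a like Rest (0.972), Foxo3 (0.968) and Tsr2 (0.963). Dnmt1 was most like Sptan1 (0.958), Cbl (0.955) and Top2a (0.954), the last a gene of dividing cells. Tet3 had the loosest neighbours, Tcf3 (0.863), Ago1 (0.842) and Ttc37 (0.835).

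Near copies limit some of these values. Of the 50-base runs of Dnmt3b transcripts, 9.81% also occur in Dnmt3c, a germline paralog that had 477 counts over morulae, 77 over round spermatids and 1 over spermatozoa. For Dppa3 16.03% occur in the pseudogene Dppa3-ps, with 555 counts over morulae, and for Uhrf1 14.67% occur in Gm5648, with 121 counts over round spermatids and 22 over morulae. The exons of Dnmt3l share 67 bases (2.24%) with Aire on the opposite strand, and those of Dnmt3a and Tet2 share 0.80% and 0.25% with antisense genes. Reads from such stretches cannot be assigned to 1 gene without doubt.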

How the data were processed

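RNA was measured in 36 libraries. The authors made Nextera libraries from spermatozoa (75-bp single-end), round spermatids and morulae (75-bp paired-end), and QuantSeq 3′ libraries from offspring liver, eWAT and gastrocnemius. The methods also call the round spermatid libraries total (Ribo-minus), a term not used there for spermatozoa or morulae. The round spermatid counts covered 51912 genes, against 54838 for spermatozoa and 55487 for morulae. Reads were trimmed with BBDuk, aligned with STAR to GRCm38 (per the submitters' processing notes and the study's methods) and counted over exons with featureCounts, and the deposited values are raw read counts per gene, with all versions not given in the sources used here. QuantSeq reads come from transcript ends, so levels of the 10 genes were compared with each other, per kilobase of exon, only in Nextera libraries, while the other pathway genes were picked by plain CPM. The study's own comparison used NOISeq on these counts.

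Groups followed the labels. Column names gave a diet only for spermatozoa and morulae, and the other 24 columns were used as 1 group per tissue. CPM was taken over the library total. Tests used edgeR 4.0.16 (quasi-likelihood, TMM scaling, genes kept by filterByExpr at 10 counts, Benjamini-Hochberg adjusted p of 0.05 over all genes) in R 4.3.3, with sperm and morula diets fitted in their own tables, the 3 Nextera tables together, and the 3 QuantSeq tables together. Alternatives were DESeq2 1.42.0, limma-voom (limma 3.58.1), library totals, totals of nuclear genes, no filter, mitochondrial genes left out, and leaving out each library. The SE of an edgeR log2 difference was its absolute size over the square root of the F value of the test. The scripts were tested on simulated data. Groups at 0 counts were given a limit of 3 counts over the group, and intervals (exact, 95%) and limits cover counting error only, since the reads carry no molecular identifiers.

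The 10 genes and the lists were chosen with earlier results of these data known. All 10 genes are named everywhere. Of the 54 other pathway genes, the 2 with the smallest unadjusted p in each direction are named per diet comparison and the 3 highest per cell type, except where an item is not reported here. For likeness, the 3 genes with the highest Pearson r are named, among genes with a group mean of at least 1 CPM in some group. Replicate libraries differed beyond counting noise in every group (chi-square per degree of freedom at least 3.50), so none was treated as a repeat of another. Start-site windows are from RefSeq on GRCm38.p6.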

Additional observations from a re-analysis of the deposited data

Results flagged for a closer look

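In 24 groups of 6 libraries with a mean of at least 1 CPM, 2 held a library far from the others, where chance gives about 1 in 20. Dnmt1 in eWAT stood at 35.9 CPM in library 4 (126 counts) against 20.6 CPM in the next highest, a gap of 0.749 of the whole range. That library had a leukocyte marker sum of 1005 CPM and the lowest adipose marker sum of the tissue, 15623 CPM, and their part in the Dnmt1 value was not tested. Tet2 in liver stood at 33.3 CPM in library 3 (74 counts) against 21.1 CPM in the next highest, a gap of 0.757 of the range.

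The log2 difference of HFD over LFD was higher in spermatozoa than in morulae for Gm10925, with an interaction term of 3.25 ± 0.43 (log2 ± SE, edgeR adjusted p = 0.0432), the 1 gene of 15416 that passed. Gm10925 lies outside the 10 genes and was named after its value was seen. The count was also 1 with DESeq2 size factors and moved with library totals, the filter, the tool and the removal of mitochondrial genes.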

How the results depend on the processing

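No paired analysis was possible because the columns of the count tables carry none of the replicate numbers in the labels. Of the log2 differences of single genes, 358 kept their direction and side of the threshold and 41 changed sign. The cause was not tested. For the sperm diet, genes called rose from 0 to 3266 with library totals, 41 with no filter and 295 with DESeq2, and members called from 0 to 3 with library totals. For the morula diet there were 63 with no filter, 18 with DESeq2 and 0 to 2 leaving out each library. The interaction gave 3413 genes and 4 members with library totals, 0 genes without mitochondrial genes, 177 with no filter, 447 with DESeq2 and 26 with limma-voom. Library totals called 4 members for liver over eWAT and 4 for eWAT over gastrocnemius, and a minimum log2 difference of 1 left 1 for liver over eWAT and 0 for liver over gastrocnemius.

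Signs turned mostly where values were near 0. In sperm, Dnmt1 gave 0.089 with DESeq2 and 0.088 with its size factors, and Tet1 0.073 and 0.072. Dnmt3a gave −1.76 with library totals, −0.15 with no filter, −0.029 with limma-voom and −0.62 with nuclear totals, and Tet2 −1.71, −0.093 (no filter) and −0.48 (nuclear totals). In morulae, Dnmt3a gave 0.017 and 0.029 with library and nuclear totals, and Tet2 0.017 and 0.030. For liver over eWAT, Dnmt3a gave −0.92 with library totals, −0.031 with no filter and −0.0074 without the shallowest gastrocnemius library, and Tet3 −0.86 with library totals. For eWAT over gastrocnemius, Dnmt3a gave 0.82 with library totals and Tet2 −0.052 without mitochondrial genes. Leaving out each library gave, in sperm, −0.13 to 0.080 for Dnmt1, −0.23 to 0.27 for Dnmt3a, −1.003 to 0.37 for Tet1 and −0.076 to 0.30 for Tet2. In morulae it gave −0.12 to 0.075 for Dnmt3a, −0.080 to 0.053 for Tet2, −0.25 to 0.33 for Tet3 and −0.16 to 0.55 for Zfp57. Nuclear totals and the shallowest library were chosen after seeing the data. Depth limits sperm, where Dnmt3b, Dnmt3l, Uhrf1, Dppa3 and Zfp57 had 0 to 31 counts in all, and the offspring tissues, where 4 of the 10 genes passed the filter.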
